A study of Mus musculus with 9 samples.

Results

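The genes of BMP and TGF-beta signalling described here are the targets Id1, Id2, Id3 and Id4, the inhibitors Smad6, Smad7 and Bambi, and the receptors Bmpr1a, Bmpr2 and Tgfbr1. They were taken by symbol from the deposited table, which held all 10 of them among 24972 gene names, and all 10 were among the 13179 genes with enough signal to be tested. The table came from Neuro2a cells, a neuroblastoma line of the mouse, and held 9 libraries in 3 groups of 3. HCX cells received 1 mM 4-methylumbelliferyl xyloside, LCX cells received 500 nM of it, and DMSO cells received the solvent alone, in which the xyloside of both other groups was also dissolved. All groups were the wild-type line in DMEM with fetal bovine serum, penicillin and streptomycin, and the labels give 48 h of treatment, while a legend of the study gives a longer time for the sequenced cells. Xylosides prime glycosaminoglycan chains that are not attached to a core protein, and the comparisons asked whether gene expression differed between the concentrations.

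BMPs and TGF-betas are secreted ligands that bring together type I and type II receptor kinases. The activated type I receptor phosphorylates receptor-regulated Smads, which join Smad4 and enter the nucleus. The Id genes, Smad6, Smad7 and Bambi are direct targets of these Smads, and the proteins Smad6, Smad7 and Bambi in turn dampen the receptors. Neuroblastoma lines descend from sympathetic neuron precursors, in which BMPs are known to induce the noradrenergic programme.

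Levels are normalized counts, the value per gene that the authors deposited after scaling each library. Differences are log2 fold changes of the value plus 1, fitted with limma-trend over all 9 libraries, and a gene was called at a Benjamini-Hochberg adjusted p under 0.05. Libraries summed to between 34949840 and 36667123 normalized counts and held 12832 to 13040 genes at 10 or more, but the number of reads behind a value is unknown. Separate cultures are not stated for the replicates, so each p measures the spread between these samples alone. An exact permutation test of 1 gene would have a smallest possible p of 0.1 with groups of 3. Phox2a, Hand2, Chga, Dbh and Th, markers of sympathetic neuroblasts, were all among the genes tested, while the neurofilament gene Nefl stayed near 0. Because whole cultures were sequenced, fewer cells of a kind and less RNA per cell cannot be told apart.

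The genes are spread over the genome. On GRCm38, Id1 lies on chromosome 2 (152736251 to 152737410, forward strand), Id2 on chromosome 12 (25093799 to 25097140, reverse), Id3 on chromosome 4 (136143497 to 136145755, forward) and Id4 on chromosome 13 (48261228 to 48266026, forward). Smad7 (75367529 to 75395935, forward) and Bambi (3507923 to 3516404, forward) lie at distant positions on chromosome 18, and Smad6 on chromosome 9 (63953076 to 64022059, reverse). Bmpr1a lies on chromosome 14 (34410734 to 34503341, reverse), Bmpr2 on chromosome 1 (59763400 to 59879014, forward) and Tgfbr1 on chromosome 4 (47353222 to 47414931, forward). At most 4.08% of the 31-base stretches of any of them occur in another gene.

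Between HCX and DMSO, 3 of the 10 genes were called, against 19.2% of all genes tested. Smad7 and Bambi rose in HCX, beside 5.73% of all genes called higher, and Id3 fell, beside 13.5% called lower. The groups did not overlap for 5 of the 10 genes, Id2, Id3, Id4, Smad7 and Bambi, against 32.8% of all genes. The median log2 fold change of the 10 was 0.02, and that of all genes -0.04. Between HCX and LCX, 4 of the 10 were called, namely Id2, Smad7, Bambi and Bmpr1a, all higher in HCX, against 17.3% of all genes called and 8.35% called higher and 8.95% called lower. Here the groups did not overlap for 5 genes, Id2, Id4, Smad7, Bambi and Bmpr1a, against 36.5% of all genes, and the medians were 0.13 for the 10 and -0.00 for all genes. The count of 4 came to 2 with no filter on low values or without LCX replicate 1, 2 or 3 or HCX replicate 1, and to 1, Bambi, without HCX replicate 3. The share of all genes called fell as well, from 17.3% to 11% with no filter. It was 10.5% to 11.5% without 1 LCX library, 14.1% without HCX replicate 1 and 13% without HCX replicate 3. Both comparisons share the HCX libraries, so that their values are not independent of each other. Between LCX and DMSO 0 of the 10 were called by limma-trend, as were 0% of all genes.

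**Figure D1:**
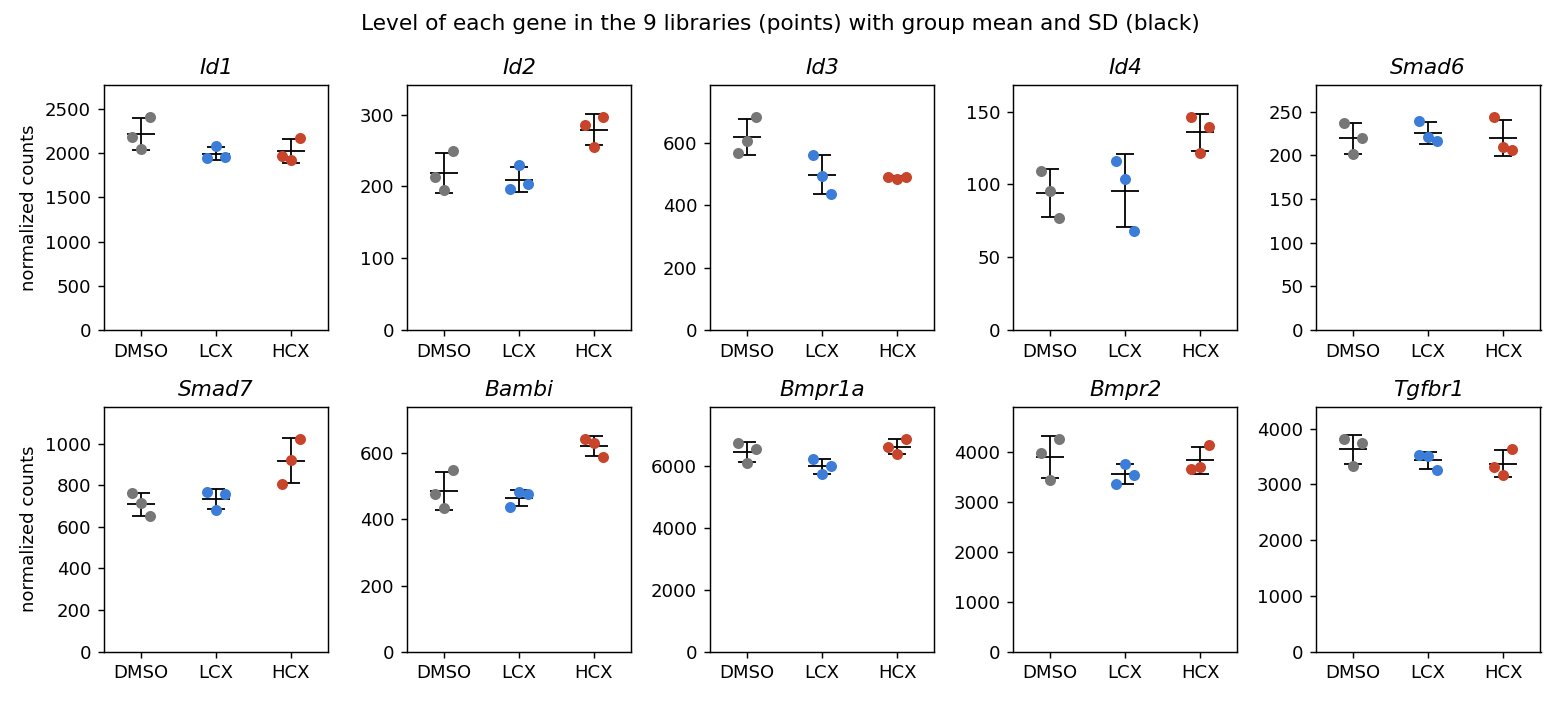
Normalized counts of each gene (vertical axes, each from 0) in the DMSO, LCX and HCX libraries. Points are libraries, and black lines give the mean and the SD of 3. Smad7, Bambi, Id2 and Id4 have all 3 HCX points above the other 6. Id3 has all 3 DMSO points above the other 6, by a narrow margin over the highest LCX point.

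**Figure D2:**
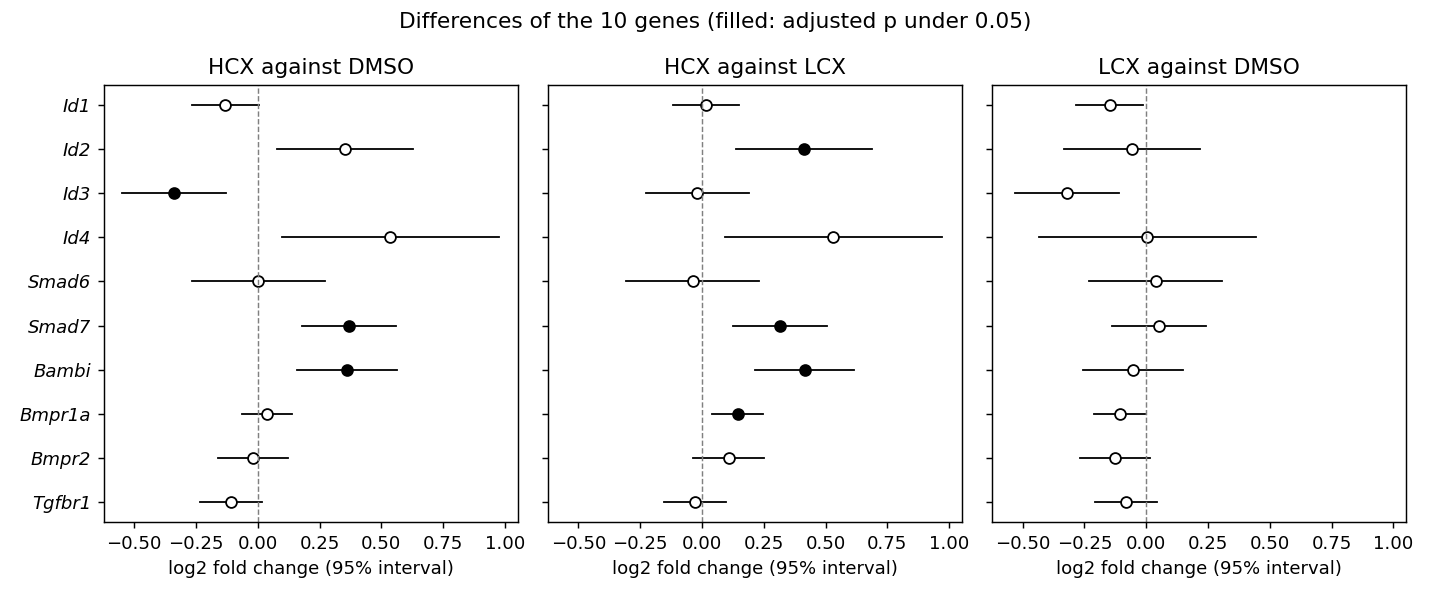
Log2 fold changes (horizontal axes) of the 10 genes between HCX and DMSO, HCX and LCX, and LCX and DMSO, with 95% intervals of the limma fit. Filled points have an adjusted p under 0.05: Id3, Smad7 and Bambi in the first comparison, Id2, Smad7, Bambi and Bmpr1a in the second, and none in the third.

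The inhibitory Smad7, which competes for activated type I receptors of both branches and recruits ubiquitin ligases to them, had the smallest adjusted p of the 10 between HCX and DMSO. Its levels were 763, 713 and 652 normalized counts in the DMSO libraries, 769, 679 and 756 in the LCX libraries and 808, 922 and 1024 in the HCX libraries. Every HCX library was above every other library, and the lowest HCX library lay closer to the highest LCX library than to the next HCX library. Smad7 averaged 918 ± 108 in HCX and 709 ± 55.7 in DMSO (SD, n = 3 each), a log2 fold change of 0.37 ± 0.09 (SE, limma adjusted p = 0.0079). Against the LCX mean of 734 ± 48.7 (SD, n = 3), the log2 fold change of HCX was 0.32 (adjusted p = 0.0210). That call was lost without LCX replicate 2, HCX replicate 2 or HCX replicate 3, with adjusted p = 0.106, 0.0563 and 0.108.

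Smad6, the other inhibitory Smad, acts mainly on BMP receptors and is a BMP target in many cell types. It had 237, 202 and 221 normalized counts in the DMSO libraries, 240, 221 and 216 in the LCX libraries and 244, 210 and 206 in the HCX libraries, and the 3 groups overlapped. The means were 220 ± 20.9 in HCX and 220 ± 17.7 in DMSO (SD, n = 3 each), which gave a log2 fold change of 0.00 (95% interval -0.27 to 0.27). A change of Smad6 as large as the fitted change of Smad7 lay outside this interval.

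Bambi is a transmembrane protein that resembles a type I receptor without its kinase and blocks signalling by both branches. Its levels were 476, 433 and 548 normalized counts in the DMSO libraries, 438, 482 and 478 in the LCX libraries and 644, 632 and 589 in the HCX libraries. All 3 HCX libraries were above all others, and the highest of the others was a DMSO library. Bambi averaged 622 ± 29.1 in HCX and 486 ± 58.1 in DMSO (SD, n = 3 each), a log2 fold change of 0.36 ± 0.10 (SE, adjusted p = 0.0134). Without DMSO replicate 2 it was 0.28 (adjusted p = 0.0573). Against LCX, at 466 ± 24.3 (SD, n = 3), the log2 fold change was 0.41 (adjusted p = 0.0059), and this call held when any 1 library was left out.

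The 4 Id genes encode helix-loop-helix proteins without a DNA-binding region, which hold bHLH transcription factors away from DNA and so delay differentiation. They did not move as a group: between HCX and DMSO, Id3 fell, Id2 and Id4 had higher values that were not called, and Id1 had a slightly lower value that was not called. Id1 had 2186, 2050 and 2410 normalized counts in the DMSO libraries, 1949, 2079 and 1959 in the LCX libraries and 1963, 1927 and 2175 in the HCX libraries. The groups overlapped, with means of 2022 ± 134 in HCX and 2215 ± 182 in DMSO (SD, n = 3 each) and a log2 fold change of -0.13 (95% interval -0.27 to 0.00, adjusted p = 0.167). It was -0.07 with library-size scaling and -0.07 without DMSO replicate 3. Between HCX and LCX the log2 fold change of Id1 was 0.02 (95% interval -0.12 to 0.15).

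Id3 was the one gene of the 10 that fell in HCX against DMSO. It had 568, 607 and 683 normalized counts in the DMSO libraries, 562, 494 and 436 in the LCX libraries and 491, 483 and 492 in the HCX libraries. All 6 xyloside libraries were below all 3 DMSO libraries. The margin was narrow, with LCX replicate 1 at 562 and DMSO replicate 1 at 568. The HCX libraries, with a coefficient of variation of 0.957%, all fell within the range of the LCX libraries. Id3 averaged 489 ± 4.67 in HCX and 620 ± 58.5 in DMSO (SD, n = 3 each), a log2 fold change of -0.34 ± 0.10 (SE, adjusted p = 0.0225). Against LCX, at 497 ± 62.9 (SD, n = 3), the log2 fold change was -0.02 (95% interval -0.23 to 0.19). The call against DMSO was lost with library-size scaling (-0.28, adjusted p = 0.0603) and with limma-voom (-0.28, adjusted p = 0.0609). It was also lost without DMSO replicate 3, HCX replicate 1 or HCX replicate 2 (adjusted p = 0.104, 0.0502 and 0.0610).

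Id2 had 213, 195 and 250 normalized counts in the DMSO libraries, 197, 229 and 203 in the LCX libraries and 285, 255 and 297 in the HCX libraries. The HCX libraries were all above the others, by a narrow margin over the highest DMSO library. The means were 279 ± 21.4 in HCX and 219 ± 28.0 in DMSO (SD, n = 3 each), with a log2 fold change of 0.35 ± 0.13 (SE, adjusted p = 0.0665). Against DMSO, Id2 passed the threshold with RLE scaling, which sets libraries level by the median ratio of their genes (0.39, adjusted p = 0.0447), library-size scaling (0.41, adjusted p = 0.0374), limma-voom (0.41, adjusted p = 0.0397) and without DMSO replicate 3 (adjusted p = 0.0358). Against LCX, at 210 ± 17.3 (SD, n = 3), Id2 was called higher in HCX, with a log2 fold change of 0.41 (adjusted p = 0.0367). That call ended with no filter on low values (adjusted p = 0.0737) and without LCX replicate 1 (0.129), LCX replicate 3 (0.109), HCX replicate 1 (0.0910) or HCX replicate 3 (0.117).

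Id4 had the lowest levels of the family and the widest spread. It had 109, 95.5 and 77.0 normalized counts in the DMSO libraries, 116, 103 and 67.9 in the LCX libraries and 146, 122 and 139 in the HCX libraries, and the HCX libraries lay above all others. The coefficient of variation was 26.1% in LCX, the highest of the 10 genes in any group. Id4 averaged 136 ± 12.6 in HCX and 94.0 ± 16.3 in DMSO (SD, n = 3 each), a log2 fold change of 0.54 (95% interval 0.10 to 0.98, adjusted p = 0.0806). Against LCX, at 95.8 ± 25.0 (SD, n = 3), it was 0.53 (95% interval 0.09 to 0.97, adjusted p = 0.0896). Neither passed the threshold. Without LCX replicate 3 the value against LCX was 0.30, and without DMSO replicate 3 the value against DMSO was 0.40. Exons of Id4 overlap 2 genes on the opposite strand, and whether reads were counted by strand is not stated.

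Receptor levels differed little. Bmpr1a, a type I BMP receptor, had 6753, 6115 and 6552 normalized counts in the DMSO libraries, 6245, 5759 and 6017 in the LCX libraries and 6622, 6399 and 6902 in the HCX libraries. HCX overlapped DMSO, and all HCX libraries were above all LCX libraries. Bmpr1a averaged 6641 ± 252 in HCX and 6007 ± 243 in LCX (SD, n = 3 each), a log2 fold change of 0.14 ± 0.05 (SE, adjusted p = 0.0469). The call ended with no filter on low values (adjusted p = 0.0714) and without LCX replicate 1 (0.0551), LCX replicate 2 (0.198), LCX replicate 3 (0.114), HCX replicate 1 (0.0841) or HCX replicate 3 (0.142). Against the DMSO mean of 6473 ± 326 (SD, n = 3), the log2 fold change of HCX was 0.04 (95% interval -0.06 to 0.14). An antisense gene, Gm17110, overlaps an exon of Bmpr1a. In all, 4.08% of the 31-base stretches of Bmpr1a occur in other genes, and Gm17110 has the most matches.

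Bmpr2, the type II receptor that phosphorylates Bmpr1a, had 3969, 3440 and 4264 normalized counts in the DMSO libraries, 3360, 3761 and 3542 in the LCX libraries and 3661, 3692 and 4145 in the HCX libraries. The groups overlapped, and the log2 fold change was -0.02 between HCX and DMSO (95% interval -0.16 to 0.12) and 0.11 between HCX and LCX (95% interval -0.03 to 0.25). The sign of the first value turned with RLE scaling, where it was 0.02. Tgfbr1, the type I receptor of TGF-beta, had 3821, 3339 and 3737 normalized counts in the DMSO libraries, 3520, 3509 and 3259 in the LCX libraries and 3310, 3161 and 3633 in the HCX libraries. The groups overlapped here too, with a log2 fold change of -0.11 between HCX and DMSO (95% interval -0.23 to 0.02) and -0.03 between HCX and LCX (95% interval -0.15 to 0.10). With library-size scaling the first value of Tgfbr1 was -0.05, and leaving out single libraries gave -0.17 to -0.06. For all 3 receptors the interval between HCX and DMSO left out a change of the size fitted for Smad7.

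In LCX against DMSO, 3 of the 10 genes had an unadjusted limma p under 0.05, Id1, Id3 and Bmpr1a, all with lower values in LCX, beside 807 of 13179 genes or 6.12%. With RLE scaling, library-size scaling or limma-voom only Id3 of the 10 kept such a p. With limma-voom 426 genes had such a p, and 0 genes were called. The groups did not overlap for 1 of the 10, Id3, against 12.9% of all genes. For Id3 this rests on the deposited scaling. RLE scaling divides the nearest libraries, LCX replicate 1 at 562 and DMSO replicate 1 at 568, by 0.990 and 1.02, which turns their order. Id3 averaged 497 ± 62.9 in LCX and 620 ± 58.5 in DMSO (SD, n = 3 each), with a log2 fold change of -0.32 (95% interval -0.53 to -0.11, adjusted p = 0.801). For Id1 it was -0.15 (95% interval -0.28 to -0.01) and for Bmpr1a -0.11 (95% interval -0.21 to -0.01), both with adjusted p = 0.801. With RLE scaling these values were -0.28 for Id3, -0.11 for Id1 and -0.07 for Bmpr1a. Smad7 and Bambi had values of 0.05 (95% interval -0.14 to 0.24) and -0.06 (95% interval -0.26 to 0.15). Across the dose series, LCX had the lowest mean for 5 of the 10 genes, lay between DMSO and HCX for 4 and had the highest mean for 1.

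Levels can be compared between genes only per exon length, taken here from GENCODE vM21 on GRCm38. Per kb of exon, Id1 stood highest, with 1910 ± 157 normalized counts in DMSO, followed by Bmpr1a at 1019 ± 51.4, Tgfbr1 at 556 ± 39.4 and Id3 at 346 ± 32.7 (SD, n = 3 each). Bmpr2 followed at 216 ± 23.2, Smad7 at 157 ± 12.3, Bambi at 95.8 ± 11.5 and Id2 at 89.9 ± 11.5 (SD, n = 3 each). Smad6 at 68.5 ± 5.52 and Id4 at 24.4 ± 4.23 ended the order. Bambi and Id2 did not differ beyond their spread, while the SD ranges of all other neighbours in this order stood apart. In HCX, Smad7 reached 203.0 and Bmpr2 213 normalized counts per kb, so these neighbours were nearer each other in level than in DMSO.

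**Figure D3:**
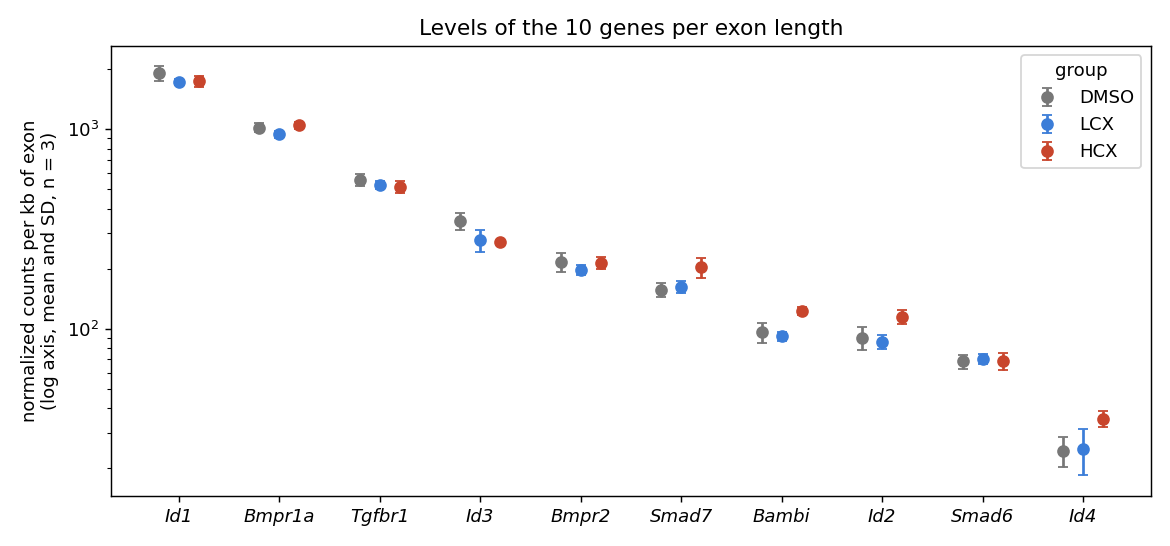
Normalized counts per kb of exon (vertical axis, log scale) of the 10 genes, ordered by their level in DMSO, for the DMSO, LCX and HCX groups. Points are means and bars are SDs of 3 libraries. Id1 is highest at 1910 in DMSO and Id4 lowest at 24.4.

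Smad proteins bind short elements in the promoters of their targets: GTCT or its reverse complement AGAC, and, for BMP Smads, GC-rich elements such as GGCGCC. The 250 bases before the RefSeq start were searched on both strands in 8 promoters of 7 of the genes (GRCm38.p6). Id1, Smad7 and Bambi had no promoter in the source used and were not searched. Of the 3 genes called between HCX and DMSO, the search thus covered Id3 alone. GGCGCC, which reads the same on both strands, was in 5 of these 8 promoters, of Id2, Id4, Bmpr1a, Bmpr2 and Tgfbr1, against 9.59% of 32851 promoters. It was not in that of Id3. Guanine and cytosine made up 52.8% to 78.8% of the 8 windows. The share among promoters of like composition was not computed, so the 2 shares do not show an enrichment of Smad elements. GTCT or AGAC was in those of Id2, Id3 and Smad6 and in the second of Tgfbr1, against 82.9% of all promoters. The longer palindrome GTCTAGAC, found in 0.167% of all promoters, was in none of the 8. The promoters of Id4 and Id2, genes whose HCX libraries lay above all others, are shown beside that of Tgfbr1, whose groups overlapped, with GGCGCC in capitals. RefSeq starts can lie inside the longer GENCODE spans: 5 of the 8 windows, of Id2, Id3, Bmpr1a, Bmpr2 and the second of Tgfbr1, did, and 3 lay outside. Id4 is shown over chr13:48260866-48261115 (forward strand), Id2 over the stretch chr12:25096254-25096342 (reverse strand, ending 162 bases before the RefSeq start and within the GENCODE span), and Tgfbr1 over chr4:47352972-47353221 (forward strand).
Id4: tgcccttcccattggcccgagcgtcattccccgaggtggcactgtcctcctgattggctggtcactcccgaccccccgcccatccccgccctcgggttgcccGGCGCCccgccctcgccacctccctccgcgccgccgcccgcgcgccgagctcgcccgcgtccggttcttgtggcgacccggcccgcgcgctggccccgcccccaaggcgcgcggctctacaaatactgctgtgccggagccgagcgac
Id2: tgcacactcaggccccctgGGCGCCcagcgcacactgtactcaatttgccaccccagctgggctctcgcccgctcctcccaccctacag
Tgfbr1: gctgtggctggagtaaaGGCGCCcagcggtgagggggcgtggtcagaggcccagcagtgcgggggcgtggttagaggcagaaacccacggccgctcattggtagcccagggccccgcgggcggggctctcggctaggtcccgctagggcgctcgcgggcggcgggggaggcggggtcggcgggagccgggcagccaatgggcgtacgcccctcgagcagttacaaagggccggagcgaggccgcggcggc
GGCGCC began 148 bases before the start in Id4, 231 in Id2 and 233 in Tgfbr1. Guanine and cytosine made up 75.6% of the 250 bases in Id4, 62.8% in Id2 and 74.8% in Tgfbr1. The element was thus present in promoters of genes with non-overlapping and with overlapping groups.

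Around these 10 genes, a list of 131 other genes of the 2 pathways was followed, of which 130 were in the table and 80 could be tested. Between HCX and DMSO, 7 of the 80 rose and 21 fell, and 52 did not pass the test, beside 5.73% of all genes called higher and 13.5% called lower. The median log2 fold change of the 80 was -0.12, and that of all genes -0.04. With RLE scaling 8 rose and 16 fell, beside 8.46% of all genes higher and 8.56% lower. Without DMSO replicate 1, 17 of 79 were called, while the share over all genes was 14.4% in that fit and 19.2% with all libraries. Between HCX and LCX 8 rose and 13 fell, beside 8.35% of all genes higher and 8.95% lower. The 21 calls came to 10 without LCX replicate 2 and 13 without LCX replicate 3, and the share over all genes to 11.5% and 10.5% in those fits, against 17.3%. Between LCX and DMSO 0 of the 80 were called by limma-trend, and 5 had an unadjusted p under 0.05, beside 6.12% of all genes. Gdf1 was among these 5, with 64.3, 701 and 0 normalized counts in DMSO and 0 in every LCX library. As given below, Gdf1 and Cers1 were rarely both above 0 in a library.

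**Figure D4:**
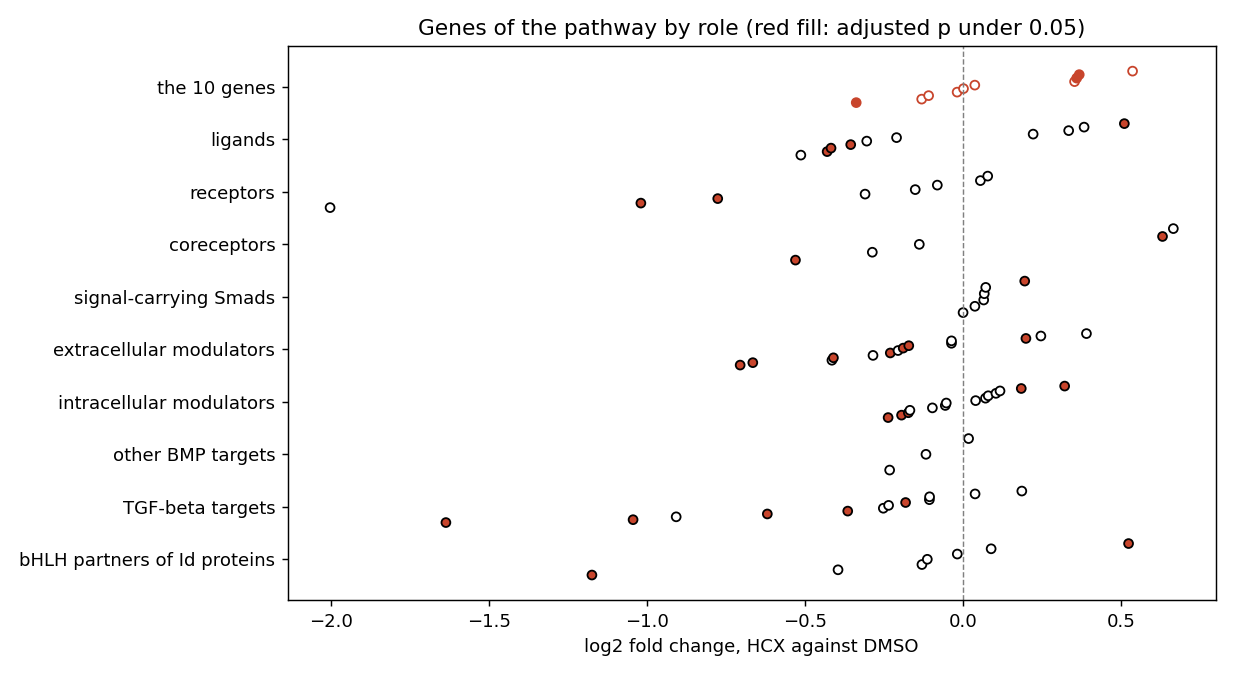
Log2 fold changes between HCX and DMSO (horizontal axis) of the 10 genes and of the tested pathway genes without Gdf1, in rows by role. Each point is a gene, with height within a row set by rank alone, and red fill marks an adjusted p under 0.05. The TGF-beta targets have 5 filled points, all below 0, and the extracellular modulators have 6 below and 1 above.

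Of the ligands, 11 of 31 could be tested, and 1 rose and 3 fell in HCX against DMSO, beside 5.73% of all genes higher and 13.5% lower. Tgfb2, one of the TGF-betas, averaged 877 ± 25.2 normalized counts in HCX and 1183 ± 52.9 in DMSO (SD, n = 3 each), a log2 fold change of -0.43 (adjusted p = 0.000496). Tgfb1, named after its values were seen as the remaining ligand called, averaged 683 ± 57.4 in HCX and 911 ± 66.3 in DMSO (-0.42, adjusted p = 0.00124). Gdf15, a stress-induced and divergent member of the family, averaged 1523 ± 20.5 in HCX and 1952 ± 147 in DMSO (-0.36, adjusted p = 0.000755). Gdf11, a ligand of activin receptors, rose to 1220 ± 116 in HCX, against 856 ± 76.4 in DMSO (SD, n = 3 each, log2 fold change 0.51, adjusted p = 0.000572). Of the 20 ligands not tested, 9 were listed at 0 in all 9 libraries, Bmp2, Bmp4, Bmp6 and Bmp7 among them. Whether such a 0 means that no transcript was present was not tested. Cers1, whose span overlaps Gdf1, was listed at 0 in DMSO replicate 2 and HCX replicate 2, where Gdf1 stood at 701 and 786.

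Among the 8 other receptors tested, 0 rose and 2 fell in HCX against DMSO, beside 5.73% of all genes higher and 13.5% lower. Amhr2, the type II receptor of anti-Mullerian hormone, averaged 82.6 ± 12.5 normalized counts in HCX and 142 ± 21.8 in DMSO (SD, n = 3 each, log2 fold change -0.78, adjusted p = 0.00492). Acvrl1, a type I receptor best known from endothelium, averaged 22.2 ± 3.91 in HCX and 45.8 ± 5.24 in DMSO (-1.02, adjusted p = 0.0250). Of 5 coreceptors tested 1 rose and 1 fell: the netrin and repulsive guidance receptor Neo1, which binds BMPs, fell to 10496 ± 323 in HCX, against 15153 ± 61.6 in DMSO (SD, n = 3 each, -0.53, adjusted p = 4.39e-08). Vasn, which binds and traps TGF-beta, rose to 171 ± 10.5 in HCX, against 112 ± 28.8 in DMSO (SD, n = 3 each, 0.63, adjusted p = 0.0192). With no filter on low values, the adjusted p was 0.0530 for Acvrl1 and 0.0547 for Vasn. The call of Acvrl1 was also lost without DMSO replicate 1 (0.0895), DMSO replicate 2 (0.0542), HCX replicate 2 (0.0521) or HCX replicate 3 (0.0793), and that of Vasn without DMSO replicate 1 (0.108) or HCX replicate 1 (0.0662).

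All 6 signal-carrying Smads were tested and had log2 fold changes above 0 in HCX against DMSO, beside 5335 of all 13179 genes. Only that of Smad1 passed the threshold, beside 19.2% of all genes called and 5.73% called higher. The other values ran from 0.00024 for Smad5 to 0.072 for Smad9, and each of their intervals included 0. A shared rise of these Smads was therefore not shown. Smad1, a BMP Smad, averaged 1898 ± 29.5 normalized counts in HCX and 1661 ± 129 in DMSO (SD, n = 3 each, log2 fold change 0.20, adjusted p = 0.0270). The call was lost in a fit of the 6 libraries compared (adjusted p = 0.0550) and without DMSO replicate 2 (0.0854), DMSO replicate 3 (0.0960), HCX replicate 1 (0.0750) or HCX replicate 2 (0.0654).

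Of 14 extracellular modulators tested, 1 rose and 6 fell in HCX against DMSO, beside 5.73% of all genes higher and 13.5% lower. Ltbp4, which holds latent TGF-beta in the matrix, averaged 3534 ± 213 normalized counts in HCX and 5603 ± 294 in DMSO (SD, n = 3 each, log2 fold change -0.67, adjusted p = 4.39e-08). Furin, the protease that cleaves the ligand precursors, averaged 2308 ± 129 in HCX and 2712 ± 236 in DMSO (-0.23, adjusted p = 0.0126), and Bmp1, a metalloprotease that is not a ligand and cleaves the antagonist chordin and procollagens, rose to 2548 ± 75.8 in HCX, against 2219 ± 59.5 in DMSO (0.20, adjusted p = 0.0160). Of 14 intracellular modulators, 2 rose and 3 fell. Tob1, which represses Smad-driven transcription, rose to 2406 ± 124 in HCX, against 1928 ± 178 in DMSO (SD, n = 3 each, 0.32, adjusted p = 0.00215). The Smad phosphatase Ppm1a and the deubiquitinase Usp15, which acts on receptors and Smads, fell (-0.19 and -0.17, adjusted p = 0.00423 and 0.0102). Furin and Usp15 were not called with library-size scaling (adjusted p = 0.0636 and 0.0758), limma-voom (0.0670 and 0.0766) or without DMSO replicate 1 (0.0755 and 0.0509). Furin was also lost without HCX replicate 1 (0.0542), and Bmp1 without DMSO replicate 3 (0.0513) or HCX replicate 3 (0.0540).

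Of 3 other BMP targets tested 0 passed the threshold, beside 19.2% of all genes called. An unadjusted limma p under 0.05 was found for 1 of the 3, beside 4273 of all 13179 genes. Junb, the most abundant of them, averaged 4946 ± 48.3 normalized counts in HCX and 4886 ± 76.5 in DMSO (SD, n = 3 each, log2 fold change 0.02, adjusted p = 0.837). Of 12 TGF-beta targets tested 0 rose and 5 fell as deposited, beside 5.73% of all genes higher and 13.5% lower. Their median was -0.24, against -0.04 for all genes. With RLE scaling the shares over all genes were 8.46% and 8.56%, and the 12 were not counted separately in that fit. Fn1, fibronectin, fell to 13219 ± 740 in HCX, against 17046 ± 1476 in DMSO (SD, n = 3 each, -0.36, adjusted p = 0.000155). The cell cycle inhibitor Cdkn1a fell less, to 4157 ± 184 in HCX, against 4712 ± 110 in DMSO (SD, n = 3 each, -0.18, adjusted p = 0.00954), though the adjusted p was 0.0692 with library-size scaling and 0.0690 with limma-voom. Tagln, an actin-binding protein of smooth muscle, had low levels of 8.75 ± 3.20 in HCX and 30.1 ± 11.9 in DMSO (SD, n = 3 each, -1.64, adjusted p = 0.0160). Its HCX libraries held 8.34, 12.1 and 5.78 normalized counts, so it passed the filter through the DMSO and LCX libraries. It was not tested where every library had to reach 10. With a pseudocount of 10 the log2 fold change was -1.06. Its call was lost without DMSO replicate 1 (0.0727), DMSO replicate 3 (0.0701) or HCX replicate 3 (0.0524). Between HCX and LCX 2 of the 12, Fn1 and Tagln, were called, both lower in HCX, beside 17.3% of all genes called and 8.95% called lower.

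Of 7 bHLH factors that Id proteins can hold, directly or through shared partners, 1 rose and 1 fell in HCX against DMSO. Over all genes 5.73% were called higher and 13.5% lower. Hand2, a factor of the sympathetic lineage, averaged 14065 ± 700 normalized counts in HCX and 9787 ± 621 in DMSO (SD, n = 3 each, log2 fold change 0.52, adjusted p = 6.58e-07). Its relative Hand1 averaged 16.6 ± 4.42 in HCX and 37.9 ± 4.36 in DMSO (SD, n = 3 each, -1.17, adjusted p = 0.0192, and 0.0728 without DMSO replicate 1 or 0.0743 without HCX replicate 1).

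Some markers of neuroblasts and of other cell kinds also differed in level between HCX and DMSO. Over all genes 5.73% were called higher, 13.5% were called lower and 32.8% had groups that did not overlap. Of 8 mesenchymal markers 5 could be tested and 1, Dcn, fell, and the summed level of the 8 was 2576 to 3418 normalized counts in HCX and 3482 to 3752 in DMSO, with Col3a1 at 0 in every library. Of 4 epithelial markers 2 were tested and Krt8 fell, with sums of 174 to 209 in HCX and 285 to 344 in DMSO. Of 4 immune and endothelial markers 2 were tested and Pecam1 fell, with sums of 145 to 191 in HCX and 224 to 236 in DMSO, and Kdr at 0. Glial markers did not pass the test, 2 of 5 being tested, and their sums overlapped between HCX (79.2 to 91.9) and DMSO (81.1 to 117). Of 10 neuroblast markers 9 were tested, and Phox2a, Hand2 and Chga rose while Nefm fell. Nefm held 9.39, 9.05 and 9.65 normalized counts in the HCX libraries and passed the filter through the other groups. Gata3, Dbh, Th, Stmn2 and Tubb3 were tested and not called. The sums of the 10 were 49313 to 51031 in HCX and 42189 to 42543 in DMSO, and the groups did not overlap. Hand2 and Chga are among the most abundant genes of this list and so weigh heavily in its sum. In the same way Krt8 weighs heavily in the epithelial sum and Pecam1 in the immune and endothelial sum. The mesenchymal sum rests largely on Acta2, which was not called and had 2435, 2392 and 1673 normalized counts in the HCX libraries. The part of these differences in the values of Smad7, Bambi, Id3 and the TGF-beta targets was not tested.

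For Smad7, Bambi and Id3, the 3 genes called between HCX and DMSO, the genes most alike in level were sought over the 9 libraries, with the Pearson correlation r of log2 values as a description. Smad7 was most like Jak1, a cytokine receptor kinase (r = 0.988), Myo18a, an unconventional myosin (0.972), and Bend4 (0.955). Bambi was most like Dusp7, a phosphatase of MAP kinases (0.995), the mitochondrial dicarboxylate carrier Slc25a10 (0.979) and the histone methyltransferase Setd2 (0.978). Id3 was most like Rtf2 (0.975), the Mediator subunit Med6 (0.969) and Zfp946 (0.943). Of these 9 genes, Jak1 averaged 4689 normalized counts in HCX and 4108 in DMSO, Dusp7 628 in HCX and 507 in DMSO, and Rtf2 2389 in HCX and 2607 in DMSO. Since the 9 libraries form 3 groups, such values are set in part by the group means.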

How the data were processed

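RNA of 9 Neuro2a samples was sequenced as stranded TruSeq mRNA libraries. The submitters' processing notes name the mm10 build and the tools TopHat2, Bowtie and Partek. Their versions, the gene annotation and the use of strand are not given in the sources used here. The authors deposited 1 table of signal values per gene and library, reads scaled per library and by a further factor near 1 that differs between genes, so whole reads could not be recovered. No further column of per-sample values was present, and 26 symbols had been turned into dates.

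Values were taken as log2(value + 1) and compared over genes at 10 or more in at least 3 libraries (13179 genes) by limma-trend, with a term per group over all 9 libraries (6 residual and 13.8 prior degrees of freedom) and Benjamini-Hochberg adjustment over all genes within each comparison. Intervals are 95% intervals of that fit. The procedure was tested on simulated data. The 10 genes and the pathway and marker lists were chosen with earlier results of these data known (some neuroblast markers are not reported here). Beside the 10 genes, the text names, from each pathway list, up to 3 genes of smallest adjusted p among those called between HCX and DMSO, or, failing any call, the most abundant tested gene, and for each called gene the 3 genes of the highest correlation. Gm and Rik genes were left out of these.

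Alternatives were RLE and library-size scaling, limma-voom, no filter, at least 10 in every library, pseudocounts of 0.5 and 10, the 6 libraries compared, a replicate block, and leaving out each library. Replicates differed by median log2 values of 0.0791 to 0.127, and none was a copy of another. Gene positions come from GENCODE vM21 and promoters from RefSeq, GRCm38.p6. Software was limma 3.58.1 under R 4.3.3, and numpy 2.4.6 and matplotlib 3.10.9 under Python 3.11.15.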

Additional observations from a re-analysis of the deposited data

How the results depend on the processing

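Of 540 refits of the 30 differences of the 10 genes, 494 kept their sign and their side of the threshold, 20 lost and 4 gained a call, and 22 turned in sign, none of these from or to a called value. Of 377 refits of the 21 named pathway genes between HCX and DMSO, 348 kept both and 29 lost the call. The log2 fold change was fixed in refits with another filter, a replicate block or the 6 libraries compared. It was also fixed without a library of the third group, so the sign could not turn in these refits. Between LCX and DMSO 0 of the 10 were called, so no call could be lost there. In the scaling alternatives Bmpr2 turned in sign between HCX and DMSO, with -0.0186 as deposited, 0.0230 with RLE scaling, 0.0389 with library-size scaling and 0.0387 with limma-voom. Leaving out 1 library in turn, the log2 fold change between HCX and DMSO ranged from -0.075 to 0.057 for Smad6, from -0.0031 to 0.069 for Bmpr1a and from -0.10 to 0.050 for Bmpr2. Between HCX and LCX it ranged from -0.036 to 0.051 for Id1, -0.11 to 0.073 for Id3, -0.11 to 0.0076 for Smad6 and -0.083 to 0.017 for Tgfbr1. Between LCX and DMSO it ranged from -0.14 to 0.039 for Id2, -0.15 to 0.23 for Id4, -0.021 to 0.095 for Smad6, -0.0084 to 0.11 for Smad7 and -0.13 to 0.035 for Bambi. The number of the 10 genes called between HCX and LCX was 2 with no filter, where more genes are tested, and 1 to 4 when a library was left out: 2 without LCX replicate 1, 2 or 3 or HCX replicate 1, and 1 without HCX replicate 3. The share called over all genes was 11% with no filter and 10.5% to 19.1% when a library was left out, against 17.3%. Pathway genes called between HCX and DMSO numbered 17 to 27 when a library was left out, and between HCX and LCX 10 to 24. Between HCX and DMSO the number of the 10 called was 2 to 3 in these fits and 3 or 4 otherwise. The share called over all genes between HCX and DMSO was 14.4% to 18% when a library was left out. In the other alternatives it was 12.4% to 21.6%, against 19.2%. Smad7 was called between HCX and DMSO in all 18 alternatives (adjusted p up to 0.0450). Between LCX and DMSO 0 of the 10 and 0 of the 80 pathway genes were called in any alternative. Same-numbered libraries did not deviate together in all pairs of groups (correlations of -0.104 to 0.104), so the numbers were not taken to pair samples. Between DMSO and HCX alone, same-numbered libraries had correlations of 0.067 to 0.104, and the others -0.071 to -0.017. With a replicate block, 3 of the 10 genes and 28 pathway genes were called between HCX and DMSO, and 4 and 21 between HCX and LCX. The block gave 2431, 2150 and 3 calls over all genes between HCX and DMSO, HCX and LCX, and LCX and DMSO, against 2536, 2280 and 0 without it. RLE factors were 0.990 to 0.991 in the LCX and HCX libraries and 1.02 in the DMSO libraries, and scaling by RLE gave a median of all genes between HCX and DMSO of 0.00, where it was -0.04 as deposited. The split of calls over all genes then was 1116 higher and 1129 lower, against 755 higher and 1781 lower as deposited, and 1307 and 966 with library-size scaling. The split of the pathway calls was 8 higher and 16 lower with RLE scaling, 8 and 13 with library-size scaling and 8 and 12 with limma-voom. The number of reads is unknown, so no counting error could be given, and low genes such as Id4 carry the widest intervals.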

Other observations

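Some ratios within a library were looked at after the values had been seen, as descriptions. The ratio of Id2 to Id1 was 0.0973, 0.0951 and 0.104 in the DMSO libraries, 0.101, 0.110 and 0.104 in the LCX libraries and 0.145, 0.133 and 0.137 in the HCX libraries. The HCX libraries did not overlap the others in this ratio, and their SD of 0.0065 was small beside the step between the groups. The ratio of Id4 to Id1 averaged 0.0673 ± 0.0063 in HCX and 0.0429 ± 0.0096 in DMSO (SD, n = 3 each), while that of Id3 to Id1 averaged 0.242 ± 0.0139 in HCX and 0.280 ± 0.0183 in DMSO. The ratio of Smad7 to Smad6 was 3.31, 4.39 and 4.97 in HCX, and 3.22, 3.54 and 2.95 in DMSO, so that HCX replicate 1 lay within the DMSO range.

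Gdf1 and Cers1, whose annotated spans overlap on chromosome 8 of GRCm38 on the same strand (70329817 to 70331587 for Gdf1 and 70315775 to 70331592 for Cers1), were rarely both above 0 in a library. Gdf1 was listed at 64.3, 701 and 0 normalized counts in DMSO, 0 in all 3 LCX libraries, and 0, 786 and 0 in HCX. Cers1 was listed at 613, 0 and 632 in the DMSO libraries, 605, 636 and 641 in the LCX libraries and 775, 0 and 752 in the HCX libraries. The sums of both genes were 775, 786 and 752 in HCX and 677, 701 and 632 in DMSO, and the cause of the split was not tested.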
